A study of Homo sapiens with 10 samples.

Results

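The genes described here were 10 regulators of the G1 phase of the cell cycle: the kinases CDK2, CDK4 and CDK6, the cyclins CCND1, CCND2, CCND3 and CCNE1, the kinase inhibitors CDKN1B and CDKN2C, and RB1. They were taken as a listed set and matched by symbol to Ensembl identifiers, 10 of the 58037 identifiers in the expression tables. Of the 10 genes, 9 had enough counts to be among the 16406 genes tested, and CCND2 did not. In G1, D-type cyclins bind CDK4 or CDK6, and cyclin E binds CDK2. The active kinases phosphorylate the RB1 protein, which then releases E2F transcription factors that switch on genes of DNA replication. CDKN1B encodes p27, which binds cyclin-CDK complexes, and CDKN2C encodes p18, an INK4 inhibitor that binds CDK4 and CDK6.

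The cells were A549, a human lung cancer cell line of epithelial origin, and A549/DDP, its cisplatin-resistant counterpart (DDP is cisplatin). Both were grown in RPMI 1640 with fetal bovine serum and penicillin/streptomycin, at low passage, and no drug treatment was given in the labels. Each line had 2 input libraries of RNA that was not pulled down and 2 m6A-seq libraries, in which RNA fragments bound by an antibody against N6-methyladenosine are sequenced and stretches enriched over input are called as peaks. Each line was a single culture line, so a difference between lines cannot be told apart from a difference between 2 cultures with separate histories. Nothing in the labels said that replicates were separate cultures, so the p-values measure only the spread between these libraries. The A549/DDP inputs carried the resistant cell type and the name A549 DDP in their labels, although their cell line field read A549. A second pair of A549 inputs, named without an experiment, entered only as an alternative.

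Input depth was 29225501 to 35286514 expected counts (RSEM's estimated reads per gene) in the 4 libraries compared, against 855034 and 982036 in the second A549 pair, where 75.2% and 73.9% of counts were mitochondrial. Both lines had the epithelial keratins KRT8, at 2028 to 9891 TPM, and KRT18, at 1591 to 4725 TPM. TPM is a level scaled for transcript length and library size. CDH1 was at 28.9 and 40.4 TPM in A549 and 226 and 114 in A549/DDP, EPCAM was at 2.45 to 6.95 TPM, and KRT19 was listed at 0 in A549/DDP replicate 2. The leukocyte genes PTPRC and CD3E, the endothelial genes PECAM1 and VWF, and PDGFRB of pericytes were all at or below 0.22 TPM. The fibroblast genes COL1A1 and COL1A2 were higher, at 1.85 to 14.7 and 0.1 to 2.69 TPM, and CD68 stood at 128 to 156 TPM.

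Between the lines, CDK6 was much lower and CCNE1 higher in A549/DDP, with RB1 lower by a smaller step, while CDK4 and CCND1 had nearly the same counts. A gene was called when edgeR's quasi-likelihood method, after Benjamini-Hochberg adjustment over all genes tested, gave an adjusted p-value under 0.05. By that rule 1 of the 9 tested genes was higher in A549/DDP, 2 were lower and 6 were not called. Over all genes 14.9% were called, 6.85% as higher and 8% as lower. The CPM of the lines (counts scaled to library size by the TMM method) did not overlap for 7 of the 9, beside 62.4% of all genes tested. The median log2 fold change of the 9 was 0.73, beside a median of -0.00 over all genes tested.

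**Figure D1:**
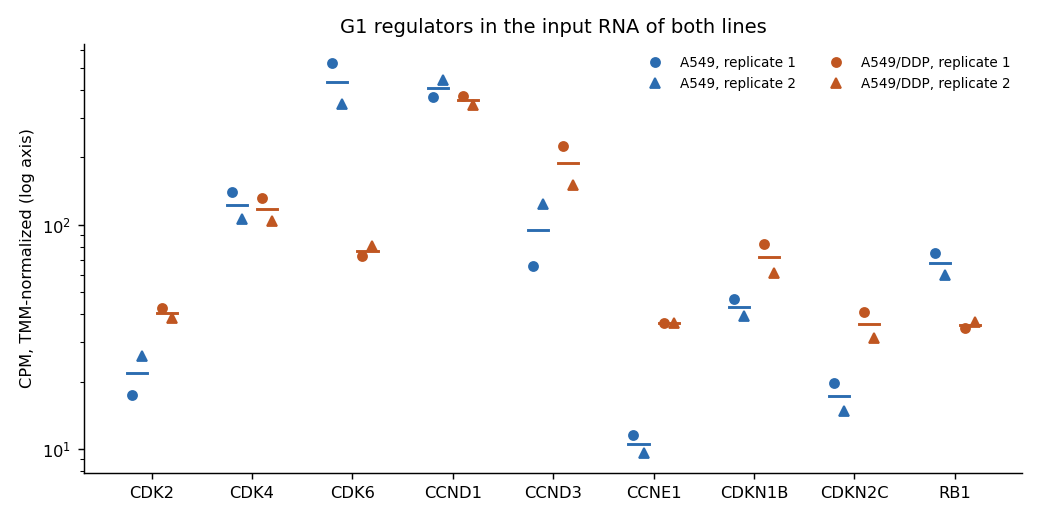
TMM-normalized CPM (log axis) of the 9 tested G1 regulators in each input library, with circles for replicate 1, triangles for replicate 2 and a bar at the mean of each line. CDK6 and RB1 sat lower in both A549/DDP libraries, CCNE1 sat higher at 36.5 and 36.6, and the points of CDK4 and CCND1 overlapped between lines.

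CDK6, a partner kinase of the D-type cyclins, had the largest difference of the set. Its CPM was 524 and 347 in the A549 libraries and 72.6 and 80.8 in A549/DDP. Both A549 libraries lay far above both A549/DDP libraries, and no value of one line approached the other. The level was 5.67-fold lower in A549/DDP, a log2 fold change of -2.50 ± 0.24 (SE, 95% interval -3.10 to -1.91), and edgeR's quasi-likelihood test put the adjusted p at 0.00392. CDK6 was called lower under all 13 alternatives tried, with adjusted p-values up to 0.0232. In bulk RNA, fewer cells in a given phase and less RNA per cell cannot be told apart, which holds for each difference described here.

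CDK4, the other partner of the D-type cyclins, gave 139.8 and 106 CPM in A549 and 132 and 104 in A549/DDP. The libraries of the lines interleaved. Its log2 fold change was -0.06 with a 95% interval from -0.60 to 0.48 and an adjusted p of 0.899 (edgeR quasi-likelihood). In TPM the lines did not overlap, with 229 and 214 TPM in A549 and 198 and 171 in A549/DDP. RSEM's effective length, by which counts are divided to give TPM, was 881 and 815 bases in A549 and 1020 and 942 in A549/DDP. With limma on log2(TPM + 1) the adjusted p was 0.435. The gene shares 2493 bases with TSPAN31 on the opposite strand. The libraries were made strand-specific, and whether the counting used strand is not given in the sources used here.

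CDK2, the kinase that cyclin E activates at the end of G1, had 17.4 and 26.1 CPM in A549 and 42.5 and 38.4 in A549/DDP. Both A549/DDP libraries were the higher ones. The log2 fold change of 0.90 (95% interval 0.15 to 1.64) did not pass, at an adjusted p of 0.103 by edgeR's test. In TPM the lines overlapped, with 19.5 and 40.01 in A549 and 66.7 and 38.7 in A549/DDP, so that the second replicate of A549 stood above that of A549/DDP. Leaving out A549 replicate 2 brought CDK2 to an adjusted p of 0.0366.

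Because TPM is scaled by length, the kinases can be compared with each other within a library. CDK6 made up 35.9% and 29.2% of the summed CDK4 and CDK6 TPM in A549, and 10.2% and 11.2% in A549/DDP. The mean share was 32.6% ± 4.71 (SD, n = 2) against 10.7% ± 0.752 (SD, n = 2), a difference of -21.9 percentage points, and the lines did not overlap. The exact two-sided permutation test gave p = 0.333, which is the smallest that 2 libraries against 2 can give. With the second A549 pair, which had 5 and 4.81 CDK4 counts, the difference was -63.4 percentage points. The sum itself was 358 and 302 TPM in A549 and 221 and 192 TPM in A549/DDP. Of the difference between the mean sums, CDK6 held 86.4 TPM and CDK4 held 37.1 TPM. The CDK4 part was not seen in CPM, where the libraries of the lines interleaved.

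**Figure D2:**
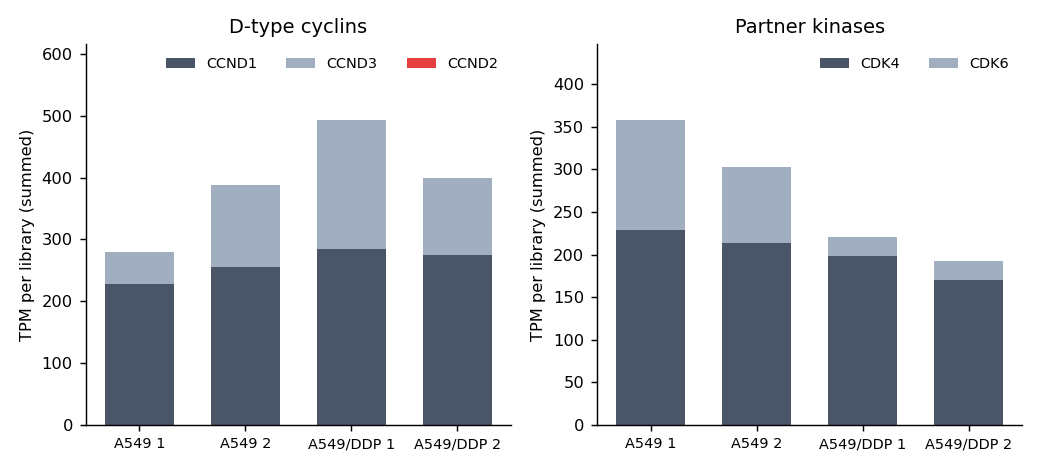
TPM of the D-type cyclins (left) and of CDK4 and CDK6 (right) stacked for each input library, with 1 bar per library. CDK6 took 35.9% and 29.2% of its pair in A549 and 10.2% and 11.2% in A549/DDP, and CCND2 is too low to see.

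CCNE1 encodes cyclin E1, the activator of CDK2 at the entry to S phase. It had 11.6 and 9.56 CPM in A549 and 36.5 and 36.6 CPM in A549/DDP. The A549/DDP libraries were almost equal to each other and both lay well above A549. The gene was 3.46-fold higher in A549/DDP, a log2 fold change of 1.79 ± 0.31 (SE, 95% interval 1.04 to 2.53), and the adjusted p was 0.0164 by edgeR's quasi-likelihood test. In TPM the values were 13.2 and 10.8 against 49.1 and 40.01, again without overlap. The call was kept in 11 of 13 alternatives, and it was lost with the second A549 pair in place of the first (adjusted p = 0.308) and with both pairs (adjusted p = 0.114), where CCNE1 had 0 and 4 counts in the second pair.

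CCND1, which encodes cyclin D1, had the highest mean TPM of the set in both lines. In A549 replicate 1 CDK4 stood slightly above it, at 229 against 228 TPM. Its CPM was 369.8 and 444 in A549 and 376 and 341 in A549/DDP, and the lines overlapped. The log2 fold change was -0.18 with a 95% interval from -0.59 to 0.23 (adjusted p = 0.537, edgeR quasi-likelihood test), which leaves room for a fall or a small rise. In TPM the order turned, with 228 and 255 in A549 below 285 and 275 in A549/DDP. RSEM's effective length for CCND1, the transcript length by which counts are divided to give TPM, was 2351 and 2870 bases in A549 and 2030 and 1925 in A549/DDP.

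CCND3, the gene of cyclin D3, gave 65.4 and 124 CPM in A549 and 226 and 149.7 in A549/DDP. Both A549/DDP values were above both A549 values, but the spread within each line was wide. At a log2 fold change of 0.99 (95% interval 0.13 to 1.84) it was not called (edgeR adjusted p = 0.113). It was called as higher in 7 of 13 alternatives, among them DESeq2 (adjusted p = 0.0199) and the fits without either A549 library. Another of the 7 was the fit with the second A549 pair, at a log2 fold change of 1.32. In that pair CCND3 had 6 and 12 counts, and the fit's median log2 fold change over all genes was 0.80. In TPM the lines overlapped, at 52.3 and 133.8 in A549 and 208 and 125 in A549/DDP. Without A549 replicate 1 its log2 fold change was 0.58, and without A549 replicate 2 it was 1.504.

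CCND2, for cyclin D2, was close to undetected, with 1 and 0 counts in the A549 inputs and 1 and 0 in A549/DDP. It had 0 counts in both libraries of the second A549 pair as well. It was therefore not tested, and no fold is given.

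Within the D-type cyclins, CCND1 made up 81.3% and 65.6% of the summed TPM in A549, and 57.8% and 68.7% in A549/DDP. The shares overlapped between lines, and the difference of -10.2 percentage points had p = 0.667 in the exact two-sided permutation test. It was -2.30 without A549 replicate 1, -18.0 without A549 replicate 2, -4.71 and -15.6 without the first or the other A549/DDP library, and 11.1 with the second A549 pair. Summed D-type cyclin TPM was 280 and 389 in A549 and 493 and 399.9 in A549/DDP, where both A549/DDP sums lay above both A549 sums.

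Both inhibitors had higher counts in A549/DDP without passing the threshold. CDKN1B had 46.9 and 39.3 CPM in A549 and 81.9 and 61.3 in A549/DDP, with no overlap between lines. Its log2 fold change was 0.73 (95% interval 0.14 to 1.32) at an adjusted p of 0.0961 in edgeR's quasi-likelihood test. CDKN2C had 19.8 and 14.8 CPM in A549 and 40.9 and 31.3 in A549/DDP, also without overlap. It reached a log2 fold change of 1.06 (95% interval 0.29 to 1.84) and an adjusted p of 0.0762 by the same test. Both inhibitors were near the threshold, and CDKN1B was called in 3 and CDKN2C in 5 of 13 alternatives, always as higher. Without A549 replicate 1, CDKN1B reached an adjusted p of 0.0378 and CDKN2C one of 0.0406. With the replicate number as a block, CDKN2C was called (adjusted p = 0.0411) and so was CCND3 (adjusted p = 0.0164).

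RB1, the pocket protein that holds E2F factors in check, gave 75.0 and 59.9 CPM in A549 and 34.7 and 36.8 in A549/DDP. Both A549 libraries were the higher ones, with no overlap. The count was 1.89-fold lower in A549/DDP, at a log2 fold change of -0.92 ± 0.23 (SE, 95% interval -1.47 to -0.37) and an adjusted p of 0.0461 in edgeR's quasi-likelihood test. The TPM did not separate the lines, at 24.4 and 21.0 in A549 and 12.2 and 24.0 in A549/DDP. RSEM's effective length for RB1 was 2376 bases in A549/DDP replicate 2 and 4384 to 4714 bases in the other libraries. With limma on log2(TPM + 1) the log2 fold change was -0.38 and the adjusted p 0.596. Leaving out A549 replicate 1 or either A549/DDP replicate also ended the call (adjusted p = 0.117, 0.147 and 0.123, in that order), and with the second A549 pair the sign turned, to 0.29. RB1 shares 55099 bases of its span with LPAR6 on the opposite strand.

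**Figure D3:**
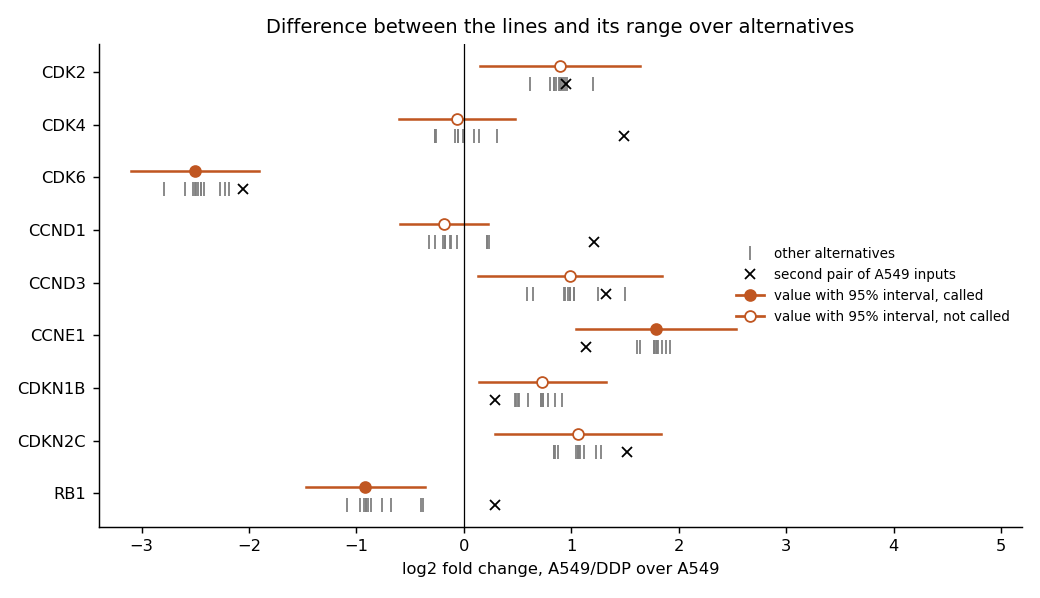
Log2 fold change of A549/DDP over A549 for the 9 tested genes, with the 95% interval (circles, filled where called), the values under the other alternatives (grey ticks) and the value with the second pair of A549 inputs (crosses). CDK6 stayed between -2.79 and -2.05, CDK4 and CCND1 had values on both sides of 0, and the crosses of CDK4, CCND1 and RB1 stood apart from the ticks.

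Ranked by mean TPM, A549 had CCND1 at 241, CDK4 at 222, CDK6 at 108, CCND3 at 93.1, CDKN1B at 57.6, CDK2 at 29.8, RB1 at 22.7, CDKN2C at 16.3 and CCNE1 at 11.995, with CCND2 last. The libraries of these neighbours overlapped for CCND1 with CDK4, CDK6 with CCND3, CCND3 with CDKN1B, and CDK2 with RB1. In A549/DDP the order was CCND1 at 279.9, CDK4 at 185, CCND3 at 166, CDKN1B at 80.04, CDK2 at 52.7, CCNE1 at 44.6, CDKN2C at 30.1, CDK6 at 22.1 and RB1 at 18.1. Here CDK4 overlapped with CCND3, CDK2 with CCNE1 and CDK6 with RB1. CDK6 went from rank 3 to rank 8 and CCNE1 from rank 9 to rank 6, while CCND1 and CDK4 held the first ranks in both lines.

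Neighbouring lists of genes were read as well, which were chosen with earlier results of these data known. One list held DNA replication genes that E2F factors are known to regulate. Of 14 such genes, all tested, 7 were higher in A549/DDP, 0 were lower and 7 were not called in edgeR's test. Over all genes tested, 6.85% were called higher and 8% lower. At an unadjusted p under 0.05, 1 gene was lower, RRM1 (log2 fold change -0.49), named after its value was seen. Their median log2 fold change was 0.96, beside -0.00 over all genes. Their CPM did not overlap between lines, in either direction, for 14 of 14, beside 62.4% of all genes tested. RRM1 and TK1 (-0.20 on the log2 scale, named after its value was seen) were the ones lower in A549/DDP. No overlap, again in either direction, was also seen for 10 of 10 further cyclins and kinases of G1 and S, whose median log2 fold change was -0.61. PCNA, the sliding clamp of DNA polymerases, had 121 and 116 CPM in A549 and 378 and 405 in A549/DDP. It was 3.30-fold higher, a log2 fold change of 1.72 ± 0.16 (SE), at an adjusted p of 0.00353 (edgeR). The others called were the helicase subunits MCM2 (0.98 on the log2 scale), MCM5 (0.94) and MCM7 (1.14), the licensing factors CDC6 (1.31) and CDT1 (1.48), and RRM2 (0.97), a subunit of ribonucleotide reductase. Under the alternatives the number called ranged widely, from 11 with DESeq2, where 10 were higher and 1 lower, to 1 with both A549 pairs. Leaving out A549 replicate 1 gave 9 and A549 replicate 2 gave 11, against 3 and 1 without the first or the other A549/DDP library, and PCNA was called each time.

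Promoter windows of 300 bases, 250 before to 50 after a transcript start, were read from RefSeq (GRCh38.p14) for 7 of the 10 G1 regulators, 12 windows in all, and for 11 of the 14 replication genes, 16 windows in all. Some windows belong to starts inside a gene. Only 5 of the 12 lay at the start of the gene span (CDK4, CDK6, CCNE1, CDKN1B and CDKN2C), the nearest CCND3 window was 1347 bases inside the span, and the single RB1 window was 172699 bases inside, so no window at the start of the RB1 span was searched. The windows were searched on both strands for 4 spellings of the E2F site, TTTCGCGC, TTTGGCGC, TTTCCCGC and TTTGCCGC. Such letters were in 8 of the 16 windows of the replication genes (50%) and in 0 of the 12 windows of the G1 regulators, beside 3.31% of all 35116 windows. The GC box GGGCGG, whose letters on the other strand are CCGCCC, was in 8 of the 12 windows of the G1 regulators. It was in 12 of the 16 windows of the replication genes and in 45% of all windows. Overlapping matches were counted, and a match is a description of letters, not of a bound site. CDK2, CCND1 and CCND2 had no window. Other spellings and bases outside the windows were not searched, so a window without a match does not show that a gene has no E2F site.

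The stretches below show matches for CCNE1 and CDK6, the called G1 regulators that kept their call in the most alternatives, and for PCNA, MCM7 and CDT1, the called replication genes with an E2F spelling before their start. CDC6 and MCM2, also called, had their matches just after the start and with other spellings, and are not printed. For CCNE1 and CDK6 each stretch is the first with the most GC boxes in 30 bases. Each is 30 bases long, 5′ to 3′ on the gene's strand, with the GC boxes in capitals for the first 2 and the E2F spelling in capitals for the other 3. They lie at chr19:29811763-29811792 (plus strand) for CCNE1, chr7:92836653-92836682 (minus) for CDK6, chr20:5126663-5126692 (minus) for PCNA, chr7:100101566-100101595 (minus) for MCM7 and chr16:88803743-88803772 (plus) for CDT1.
CCNE1: ttggccCCGCCCtgtccgccggccCCGCCC
CDK6: ccgtCCGCCCccagcgagcggcgcGGGCGG
PCNA: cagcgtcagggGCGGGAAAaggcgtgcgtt
MCM7: cagctcggaccGCGGGAAAcccggcgcctg
CDT1: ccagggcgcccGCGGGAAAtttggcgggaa
In the whole window CCNE1, which was higher in A549/DDP, had 7 GC boxes, and the window of CDK6, which was lower, at its span start had 3. The capitals of PCNA, MCM7 and CDT1 are 1 spelling, TTTCCCGC, read on the other strand, and MCM7 had TTTCGCGC as well.

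Among the genes that act on G1 proteins after translation, SKP2 and CKS1B, known partners in the ubiquitin ligase that marks p27 for degradation, went opposite ways. SKP2 had 4.77 and 5.78 CPM in A549 and 24.0 and 30.8 in A549/DDP, a 5.19-fold rise with a log2 fold change of 2.37 ± 0.38 (SE) and an adjusted p of 0.0141 by edgeR's quasi-likelihood test. CKS1B had 119.6 and 100.04 CPM in A549 and 33.7 and 40.9 in A549/DDP, 2.94-fold lower, with a log2 fold change of -1.56 ± 0.22 (SE) and an adjusted p of 0.00943 by the same test. Neither gene overlapped between lines. Of the 12 genes on this list, 2 were higher (the other being UBAC1, at 1.32 on the log2 scale), 1 was lower and 9 were not called, with a median of 0.36. Over all genes tested, 14.9% were called. CKS1B was called in all alternatives but the one with both A549 pairs, where 0 genes of the list were called. UBAC1 lost its call without A549/DDP replicate 1 and with limma, and SKP2 lost its call with the second pair and with limma on log2(TPM + 0.1).

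Of 12 genes known to act upstream of CCND1 or CDKN1B, 11 were tested, with 1 higher, 4 lower and 6 not called, and a median log2 fold change of -0.33. The share called over all genes tested was 14.9%. JUN, a subunit of AP-1, had 461 and 519.6 CPM in A549 and 56.3 and 66.3 in A549/DDP, 7.99-fold lower, at an adjusted p of 0.00156 (edgeR). MYC had 895 and 549.9 CPM against 188 and 156, 4.20-fold lower (adjusted p = 0.00800, edgeR). ATF3, a stress-induced factor, was lower as well (log2 fold change -4.91 ± 1.19, SE), with 4913 and 3362 counts in A549 and 8 and 271 in A549/DDP, which lay far apart. TCF7L2, a factor of Wnt signalling, was at -1.21 and MEN1, the gene of menin, at 1.85 on the log2 scale. With both A549 pairs JUN was the 1 gene still called, and TCF7L2 lost its call without either A549/DDP library. MEN1 lost its call with limma at either pseudocount (adjusted p = 0.0766 and 0.0863), and ATF3 with log2(TPM + 0.1) (adjusted p = 0.077). FOXO1, named after its values were seen, was not called by edgeR (log2 fold change -0.62), while limma called it lower, at -2.88 on log2(TPM + 1). The limma value rests on TPM, for which counts are divided by RSEM's effective length. For FOXO1 that length was 629 and 694 bases in A549 and 4503 and 5603 in A549/DDP. Its CPM was 6.38 and 8.32 in A549 and 6.01 and 3.55 in A549/DDP. CCND1 itself did not pass the test in either direction.

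The 10 pocket protein and E2F genes were all tested, and 1 was called, beside 14.9% of all genes tested. This was TFDP2, a dimer partner of E2F factors, with a log2 fold change of 1.41 ± 0.30 (SE) and an adjusted p of 0.0315 (edgeR). TFDP2 lost its call in 5 of 13 alternatives: without A549/DDP replicate 2, with the second pair, with both pairs, and with limma at either pseudocount, where its log2 fold change was 0.53 and 0.55. The median of these genes was 0.03. Of 10 further cyclins and kinases of G1 and S, 9 were not called and CDK3 was called lower, with 146 and 160 counts in A549 and 1 and 0 in A549/DDP. CDK3 shares its locus with a readthrough transcript, TEN1-CDK3, so its counts are uncertain, and the part of that transcript in them was not tested. It lost its call without either A549 library, with both pairs and with limma, and it was not tested with the second pair or with at least 10 counts in every library. The list had a median of -0.61, and 8% of all genes tested were called lower. The alternatives called 0 to 5 of its genes, 0 with both pairs and without A549 replicate 1 and 5 with the second pair: CCNH, CDK7 and WEE1 were called lower beside CDK3 with DESeq2, with no filter on low counts and with the replicate block, and limma called CCNH and not CDK3. These 3 genes are named after their values were seen, and their adjusted p-values were 0.0511, 0.0548 and 0.0526 in edgeR. Of 5 other CDK inhibitors only 2 had enough counts to test and 0 were called by edgeR, DESeq2 or limma, with 0 at an unadjusted p under 0.05 in edgeR. CDKN1A, the gene of p21, also named after its values were seen, was called lower in edgeR without A549 replicate 2 (adjusted p = 1.07e-06) and with no filter on low counts (adjusted p = 0.023). The remaining 3, named after their values were seen, were near the floor: CDKN1C had 18 and 1 counts in A549 and 8 and 0 in A549/DDP, and CDKN2A had 6 and 0 against 11 and 1. CDKN2B had 2 and 1 against 123 and 0, so that a single library held nearly all its counts, and it was called as higher once the other A549/DDP library was left out.

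**Figure D4:**
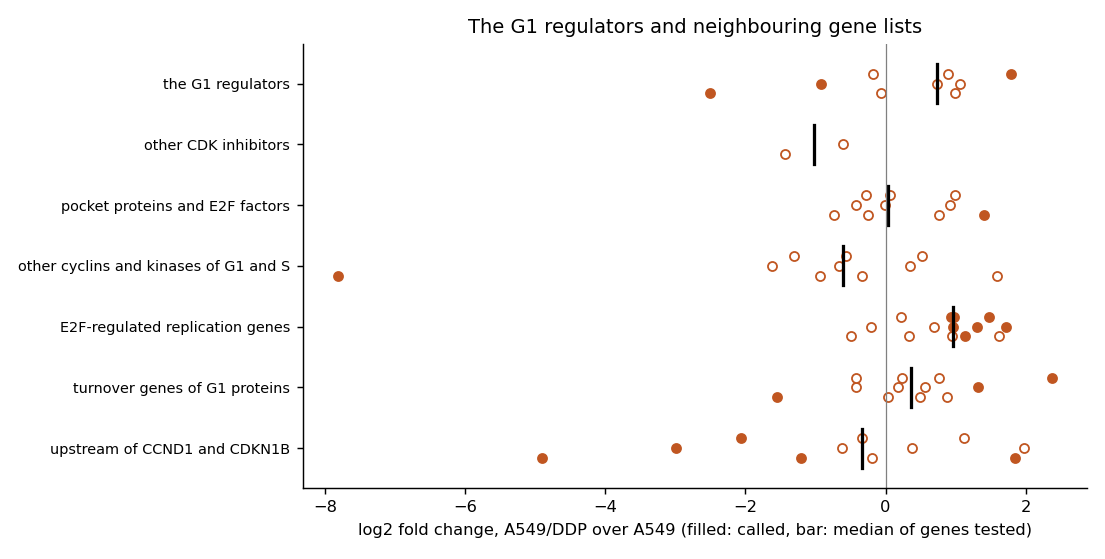
Log2 fold change of A549/DDP over A549 for each tested gene of the G1 regulators and of 6 neighbouring lists, filled where called, with a bar at the median of each list. The medians were 0.73 for the G1 regulators and 0.96 for the replication genes, and the point at -7.82 is CDK3, with 1 and 0 counts in A549/DDP.

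The m6A-seq lists showed called peaks at 8 of the 10 genes, and 2 of them, CDKN1B and CDKN2C, had a peak in all 4 lists. The lists give positions and a p-value per peak, with no level or read depth, so peaks were counted and not compared in height. They held 26320 and 14576 peaks for A549 replicates 1 and 2, and 27244 and 10661 for A549/DDP. Among 9541 tested genes with a mean of at least 10 TPM, 21.8% had a peak in all 4 lists and 76% in at least 1. Of the 9 tested regulators, all at or above that level, 2 had a peak in all 4 lists, near that share, and 8 in at least 1. By list, a peak was called at 6 of the 9 in A549 replicate 1 (57.2% of genes), 2 in A549 replicate 2 (43.3%), 6 in the first A549/DDP list (60.4%) and 3 in the other (33.7%).

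CDKN1B had 2 and 4 peaks in the A549 lists and 4 and 4 in A549/DDP, with p-values from 3.2e-08 to 0.001. The peaks covered 791 and 842 bases in A549 and 694 and 941 in A549/DDP, on the plus strand of chromosome 12. One merged region, from 12717660 to 12721286, held peaks of all 4 lists, though not over its whole length. A peak of A549/DDP replicate 2 with 2591 bases in gaps joined its parts. The A549 replicate 1 peak ended at 12718860, while each other list had a block ending at 12721286. A region from 12717463 to 12717611, 95 to 243 bases from the gene start, was in both A549 lists and in neither A549/DDP list. Another, from 12721779 to 12721927, was in both A549/DDP lists and in neither A549 list. These differences in called regions were not tested, since the lists hold no read counts.

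CDKN2C had 3 and 4 peaks in A549 and 2 and 3 in A549/DDP, with p-values from 4.2e-08 to 0.0021. On the plus strand of chromosome 1, the regions from 50968867 to 50969412 and from 50969560 to 50970000 were found in all 4 lists. A further region, from 50970297 to 50974237, was in both A549 lists and in A549/DDP replicate 2. The same stretches of the transcript were thus called in every library, or in all but A549/DDP replicate 1. When a peak p-value of at most 1e-05 was required, neither inhibitor had one in every list, and the count of genes with a peak in all 4 lists was 0.

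No cyclin or kinase gene had a peak in all 4 lists, which also held for most of the 9541 genes. CDK4, CCND3 and CCNE1 had peaks in replicate 1 of both lines and in neither replicate 2, a pattern of 3 of the 9 genes and of 7.49% of the 9541 genes. Replicate 1 of each line is the longer list, and the part of list length in this pattern was not tested. The replicate numbers of the A549 m6A-seq labels ran the other way in the file names, and those of the labels are used. CDK4 had 1 peak in A549 and 3 in A549/DDP, and a pair of these overlapped, between 57748321 and 57749281 on chromosome 12 (minus strand). CCND3 had 5 and 4 peaks, all in the last 5.9% of its span, and 4 of its 5 merged regions were in both lists. The promoter windows of CCND3 belonged to transcript starts 1347, 108227 and 110830 bases inside that span. Its first peak in each of these lists began at 108280 bases, just after the second of those starts. The place of the CCND3 peaks in the span therefore does not give their place in a transcript, which was not tested. CCNE1 had 1 peak in A549, with a p-value of 0.0058, and 4 in A549/DDP, with p-values of 7.2e-08 and 1e-07, where the shared region lay at the far end of the gene, from 29822557 to 29824258 on chromosome 19.

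CDK2 had 4 peaks in A549/DDP replicate 1, each with a p-value of 4e-08 and together 803 bases, and none in the other lists. CDK6 had 3 peaks in A549 replicate 1, with p-values from 1.9e-06 to 0.011, and none in A549/DDP, where its CPM was 5.67-fold lower. CCND1 had a single peak, in A549/DDP replicate 2 at chromosome 11 from 69641236 to 69641435, with a p-value of 0.0087, although its mean TPM was the highest of the set. RB1 and CCND2 had no peak in any list. Single lists thus carried the peaks of CDK2, CDK6 and CCND1, without a second library of the same line. Over the set, the peaks merged into 26 regions, of which 3 were in 4 lists, 1 in 3, 8 in 2 and 14 in 1. Regions of other genes were not merged, so these counts cannot be read as particular to the set.

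**Figure D5:**
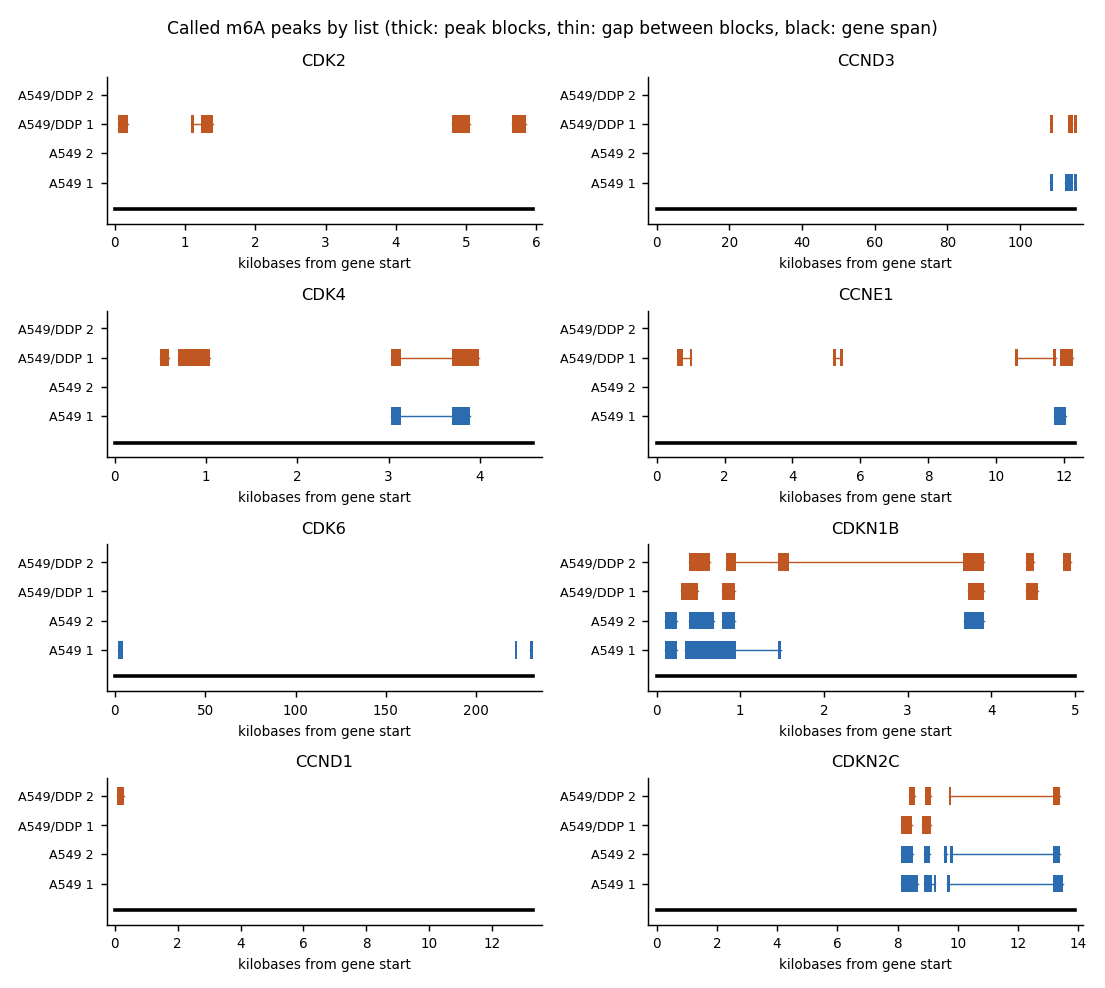
Called m6A peaks of the 8 genes that had any, by list and by distance from the gene start in kilobases, with thick blocks for the exon blocks of a peak (drawn at a minimum width), thin lines for gaps between blocks and a black bar for the gene span in RefSeq GRCh38.p14. CDKN1B and CDKN2C had blocks in all 4 lists, and CDK4, CCND3 and CCNE1 only in the first list of each line.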

How the data were processed

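Groups and replicate numbers came from the sample labels. For each input library the deposited table, in RSEM's layout, gave expected count, TPM and FPKM per gene. The deposited expected counts are estimates that are not normalized, and the authors scaled TPM and FPKM for length and library size. Each m6A-seq library had a deposited list of called peaks with exon blocks and a p-value per peak, which is not said to be raw or adjusted. The submitters' processing notes name hg38, STAR, RSEM and bedtools, and the peak caller is not given in the sources used here. The authors' effective lengths were read beside the counts.

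Rounded expected counts of the 4 inputs entered edgeR 4.0.16 (R 4.3.3), with filterByExpr for low counts, TMM scaling and a quasi-likelihood test without a block. P-values were adjusted over all 16406 genes tested, and common dispersion corresponded to a biological coefficient of variation of 0.656. Standard errors and 95% intervals were derived from edgeR's F statistic. The scripts were tested on simulated data. DESeq2 1.42.0, limma 3.58.1 and other filters, scalings and libraries were alternatives. In limma a pseudocount of 1 or 0.1 was added to TPM and genes needed a mean of at least 1 TPM. Fits without a library assumed that the lone library of its line varies like the others. Peaks were merged where blocks on a strand overlapped by 1 base or more, and positions count from 1. Symbols were matched for 56993 of 58037 identifiers. Named genes were the 10 regulators and the called genes of 6 lists. The regulators and lists were chosen with earlier results of these data known. YTHDF1 RIP-seq and peak sequences were not analysed here.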

Additional observations from a re-analysis of the deposited data

How the results depend on the processing

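The exact test of 2 libraries against 2 could not pass 0.05, and m6A-seq depth is unknown, so neither the shares nor the peaks could show a significant difference. Over all genes, 2437 were called, against 4234 with DESeq2, 4010 with no filter beyond 1 count, 3614 with at least 10 counts in every library, 3758 with the second A549 pair, 677 with both pairs, 1492 with limma on log2(TPM + 1), 1177 on log2(TPM + 0.1) and 2052 to 3809 with a library left out. Of the 10 regulators 3 were called, against 5 with DESeq2, 6 with no filter, 6 with at least 10 counts, 1 with both pairs and 2 to 5 with a library left out. The second pair held 855034 and 982036 counts, and with it the median log2 fold change over all genes was 0.80. Beside that shift, CDK4 was at 1.49 and CCND1 at 1.21, both reversed and called, and RB1 at 0.29, reversed and not called. With both pairs CDK4 was at 0.31 and CCND1 at 0.23, and limma put CCND1 at 0.22 with either pseudocount. CDK4 ran from -0.26 to 0.14 with a library left out. The CCND1 share differed by 11.1 percentage points with the second pair and by -18.0 to -2.30 with a library left out, and the CDK6 share by -63.4 with the second pair and by -25.2 to -18.5 with a library left out. Of the 10 regulators, those with a peak in all lists numbered 0 at a p-value at or below 1e-05 and 2 with a list left out. Merging at 50% of the shorter peak gave 29 regions in place of 26.

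With the replicate number as a block, 3536 genes and 5 regulators were called, CCND3 and CDKN2C in addition. The numbers are not said to pair the libraries, and deviations of same-numbered libraries from their line means had a correlation of 0.021 over genes.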

Other observations

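In the second pair of A549 inputs, whose experiment the labels do not name, the G1 regulators had few counts. CDK6 had 43 and 33 counts, CCND1 had 19 and 18, CDKN1B had 7 and 7, and CCND3 had 6 and 12. CDK4 had 5 and 4.81 expected counts, RB1 had 3 and 4, CDK2 had 3 and 2, and CDKN2C had 3 and 0.

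RSEM's effective length also differed between libraries for other regulators. For CDK2 it was 1292 and 1074 bases in A549 and 981 and 1540 in A549/DDP, and for CDKN1B it was 1518 and 918 against 1506 and 1243. The CDKN1B TPM was 44.7 and 70.5 in A549 and 83.7 and 76.4 in A549/DDP.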
